A study of Mus musculus with 15 samples.

Results

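The nuclear-encoded subunits of the oxidative phosphorylation complexes were examined in tumours grown in mice from MC38, a mouse colon adenocarcinoma cell line. They were taken as every gene whose symbol carried the Nduf, Sdh, Uqcr, Cox4 to Cox8 or Atp5 stem of a subunit, which gave 84 of the 21851 genes of the expression table: 37 for complex I, 4 for complex II, 8 for complex III, 18 for complex IV and 17 for complex V. The rule uses no expression value. Tumour pieces from 3 groups of 5 were profiled by stranded mRNA sequencing. The first group had received intravenous BG136, a soluble β-glucan, together with anti-PD-1 antibodies (the combination). The second had received intravenous anti-PD-1 antibodies, which block an inhibitory receptor of T cells, and the third had received intravenous vehicle. The labels call every sample wild type and name no dose, day, age, sex or host strain. They number the tumours within a group and do not say which mice, cages or days they came from, so the p-values measure the spread between these samples. The table's column names carry different tags within the combination (replicate 1, replicates 2 and 3, replicates 4 and 5) and within vehicle (replicate 1, replicates 2 to 5). What the tags mark is not given in the sources used here, and no term was fitted for them.

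In oxidative phosphorylation, complexes I to IV of the inner mitochondrial membrane pass electrons from NADH and succinate to oxygen, and complex V uses the proton gradient built by complexes I, III and IV to make ATP. Complex II pumps no protons and is also an enzyme of the tricarboxylic acid cycle. The catalytic cores of complexes I, III, IV and V include subunits encoded by mitochondrial DNA, while every subunit of complex II is nuclear. In tumours these genes are expressed by the cancer cells and by the immune and stromal cells among them.

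The subunits were among the more abundant messages of the tumours. The level of a gene is given as FPKM, a measure scaled to transcript length and library size, which allows genes of different length to be compared; the table does not name its unit, which was read from the values. A gene was tested where it reached 1 FPKM in at least 5 of the 15 libraries, which 11311 genes did. Of the 84 subunit genes 80 were tested, with a median level of 97.2 FPKM against 9.46 FPKM over all genes tested, and 38 of them averaged at least 100 FPKM. The median level was 212 FPKM for the 14 tested genes of complex IV, 187 FPKM for the 17 of complex V, 90.4 FPKM for the 8 of complex III, 88.9 FPKM for the 4 of complex II and 83.9 FPKM for the 37 of complex I. Cox8a had the highest level, 719 FPKM, followed by Atp5b with 716 FPKM. The lowest tested members were Atp5s, at 1.57 FPKM, and Atp5sl, at 2.11 FPKM. The 4 genes below the limit, Cox4i2, Cox6b2, Cox7b2 and Cox8c, are isoforms of complex IV subunits.

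The libraries' FPKM values summed to between 377509 and 424899, and the highest sum belonged to combination replicate 4. The 8 colon epithelium markers were low for tumours labelled as a colon line, though 5 of the 8 reached the limit for testing. Together they summed to 2.98 to 27.8 FPKM in combination tumours, 1.15 to 19.9 FPKM in anti-PD-1 tumours and 1.02 to 7.01 FPKM in vehicle tumours. Cdx2 and Vil1, picked after their values were seen, were the one listed at 0 in every library and the other at no more than 0.0517 FPKM. Markers of other cells were higher in combination tumours than in vehicle tumours in several lists. By limma, as described next, 6 of 7 macrophage, 5 of 5 T cell, 5 of 6 endothelial, 3 of 6 pericyte and smooth muscle, 2 of 4 red blood cell, 1 of 5 colon epithelium and 1 of 8 adipocyte markers rose, 3 of 6 fibroblast markers rose while 2 fell, and 0 of 13 skeletal muscle and 0 of 6 proliferation markers passed. Over all genes tested, 16.6% were called higher in this comparison and 23.9% lower. Beside that share, 1 call among 5 colon epithelium or 8 adipocyte markers does not set those lists apart by number called. All 5 and all 8 differences were nonetheless above 0, with log2 medians of 1.40 and 1.33, against -0.05 over all genes tested. By limma, 4 of the 5 and 5 of the 8 were higher at an unadjusted p under 0.05, beside 2285 of all 11311 genes. Their median SE was 0.51 and 0.55, against 0.08 over all genes tested. The macrophage markers summed to 1896 to 4496 FPKM in combination tumours, 1858 to 2224 FPKM in anti-PD-1 tumours and 1282 to 1651 FPKM in vehicle tumours. The summed T cell markers reached 37.1 to 132 FPKM in combination tumours, 26.7 to 38.8 FPKM in anti-PD-1 tumours and 11.9 to 24.7 FPKM in vehicle tumours. The endothelial sum was 42.2 to 104 FPKM in combination tumours, 35.9 to 53.8 FPKM in anti-PD-1 tumours and 29.3 to 42.4 FPKM in vehicle tumours. Brown adipocyte markers were not tested, and their sum stayed between 0.0162 and 1.16 FPKM over the 15 libraries. With the adipocyte score of each library as a covariate, 5 subunit genes were called between combination and vehicle in place of the 10 described next, and with the skeletal muscle score 12, 9 higher and 3 lower. The share of all genes tested that was called also changed, to 20.5% with the adipocyte score and 35.2% with the skeletal muscle score, from 40.5%. The part of the other cells in the results on the subunits was not tested.

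Combination tumours differed from vehicle tumours in a small number of subunit genes, and in both directions. Ndufa1, Sdhb, Cox5a and Atp5sl rose, and Ndufa4, Ndufv1, Sdha, Sdhc, Atp5g1 and Atp5s fell. Complex II was the complex with the most calls for its size, 3 of 4 genes, while complex III had 0 of 8 by limma, with 1 of 8 at an unadjusted p under 0.05. Each tested gene was compared by limma on log2(FPKM + 1) in 1 fit of the 15 libraries, two-sided, and was called at a Benjamini-Hochberg adjusted p under 0.05 over all genes tested. Fold changes are differences on that log2 scale, which understates the change of genes with low FPKM. The 10 called members were 12.5% of the 80 tested, where 40.5% of all genes tested were called, 16.6% of them higher and 23.9% lower. The median difference was -0.04 over the members and -0.05 over all genes tested, and 68 of the 80 members (85.0%) lay within 0.2 of 0, against 57.4% of all genes. By complex, the median was -0.05 for complex I, 0.00 for complex II, -0.03 for complex III, 0.07 for complex IV and -0.09 for complex V. In bulk tumour RNA, fewer cells of a type and less RNA per cell cannot be told apart.

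The balance of higher and lower members moved with the scaling between libraries. The values as deposited gave 4 higher and 6 lower, median-ratio scaling gave 7 higher and 3 lower, and quantile normalization gave 3 higher and 12 lower. The count also rested on single libraries. It was 25 without combination replicate 4, 6 without combination replicate 1, and 5 without combination replicate 3 or without vehicle replicate 5. Leaving out combination replicates 3 and 5 left 4 called members, and leaving out replicates 3, 4 and 5 also left 4. Ndufa4 was called in each of the 25 alternative settings run, Ndufa1 and Sdhc in 24, Ndufv1 in 21 and Atp5sl in 20, whereas Sdhb was called in 12, Atp5s and Cox5a in 10, Sdha in 8 and Atp5g1 in 6. A stricter filter on low values, 1 of the 25 settings, left Atp5sl and Atp5s untested.

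**Figure D1:**
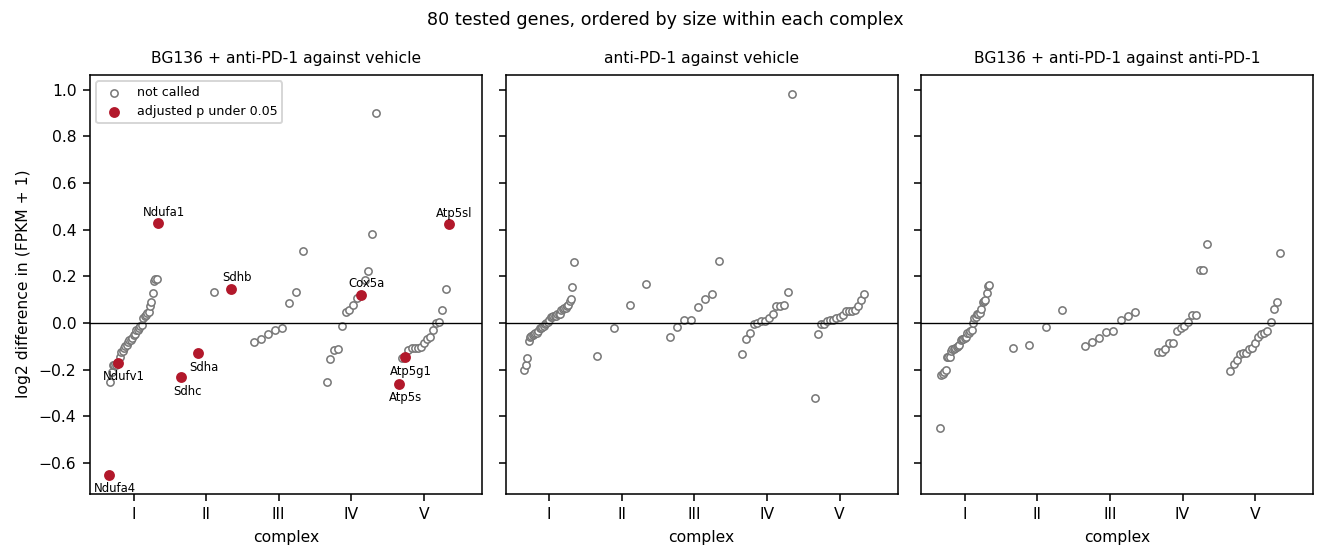
Difference on the log2(FPKM + 1) scale of each tested subunit gene, by complex, in panels for combination over vehicle, anti-PD-1 over vehicle and combination over anti-PD-1; filled points have an adjusted p under 0.05 by limma. The 10 filled points are all in the first comparison, with Ndufa4 lowest at -0.65.

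Many genes of oxidative phosphorylation share binding motifs for NRF1 and for ETS factors such as GABP in their promoters, and the promoters of 3 called members are printed to show how they differ in this respect. They come from RefSeq's annotation of GRCm38.p6 and run from 250 bases before to 50 bases after the start of the gene, 5′ to 3′ on its own strand. Capitals mark the NRF1 core, searched as GCGCATGC on both strands and present here on the other strand as GCATGCGC, and the ETS core, searched as CCGGAA on both strands. Ndufa4, the member with the largest fall, and Ndufa1, the rise called in most settings, hold neither set of letters in this window, and Sdhb holds one copy of each.
Ndufa4, chr6:11907401-11907700, minus strand: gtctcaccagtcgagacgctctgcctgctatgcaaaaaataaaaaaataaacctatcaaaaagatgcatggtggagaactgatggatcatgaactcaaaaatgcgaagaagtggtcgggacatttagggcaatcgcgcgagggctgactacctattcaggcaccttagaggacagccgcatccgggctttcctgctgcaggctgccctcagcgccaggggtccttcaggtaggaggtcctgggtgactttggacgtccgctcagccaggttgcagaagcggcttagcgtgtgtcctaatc
Ndufa1, chrX:37191189-37191488, minus strand: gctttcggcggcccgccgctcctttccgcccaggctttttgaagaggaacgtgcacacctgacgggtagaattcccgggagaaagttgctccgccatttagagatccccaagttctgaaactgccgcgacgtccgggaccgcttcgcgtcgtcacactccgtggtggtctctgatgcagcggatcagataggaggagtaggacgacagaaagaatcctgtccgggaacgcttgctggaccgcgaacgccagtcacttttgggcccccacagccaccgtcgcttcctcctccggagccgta
Sdhb, chr4:140961021-140961320, plus strand: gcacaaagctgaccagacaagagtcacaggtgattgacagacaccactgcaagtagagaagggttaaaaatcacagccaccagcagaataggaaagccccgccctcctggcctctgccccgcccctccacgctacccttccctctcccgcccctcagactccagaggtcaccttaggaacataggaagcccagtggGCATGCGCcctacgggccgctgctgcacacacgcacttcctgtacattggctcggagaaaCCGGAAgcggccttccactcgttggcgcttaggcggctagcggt
Of the 84 members, 70 were matched in the promoter table. The NRF1 core stood in 10 of the 70 (14.3%), against 3.05% of the 27025 genes of the table and 6.26% of the genes tested here. The longer NRF1 palindrome, that core with GC added after it, stood in 5 of 70 (7.14%), against 1.07% of the table and 2.43% of the genes tested. The ETS core stood in 26 of 70 (37.1%), against 16.7% of the table and 32.3% of the genes tested. In its longer form CCGGAAGT it stood in 5 of 70 (7.14%), against 4.31% of the table and 9.59% of the genes tested. These are matches of letters, not sites known to be bound.

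Ndufa4 showed the largest fall of any called subunit gene. Its symbol is that of a complex I subunit, but the protein is now placed with complex IV. Ndufa4 was at 250.4, 247, 181, 229 and 159.9 FPKM in combination tumours, 296, 302, 294, 299.9 and 249 FPKM in anti-PD-1 tumours, and 292, 313, 337, 338 and 377 FPKM in vehicle tumours. Every combination tumour lay below every vehicle tumour, and the highest combination tumour lay just above the lowest anti-PD-1 tumour, replicate 5. The mean was 213 ± 40.8 FPKM in combination tumours, 288 ± 22.0 FPKM in anti-PD-1 tumours and 331 ± 32.0 FPKM in vehicle tumours (SD, n = 5 each). By limma the difference was -0.65 ± 0.12 (SE) between combination and vehicle, at an adjusted p of 0.000826. It was -0.45 ± 0.12 between combination and anti-PD-1, at an adjusted p of 0.0790, and -0.20 ± 0.12 between anti-PD-1 and vehicle, at an adjusted p of 0.321. Across the 19 alternatives listed for single genes the first of these lay between -0.71 and -0.41. The comparisons share libraries, so that the values stand side by side without being independent of each other.

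A pair of relatives of Ndufa4 ran the other way. AA467197, listed by RefSeq also as Nmes1, encodes a related small protein that is known from human cells to take the place of NDUFA4 in complex IV, and it was added here after its values were seen. It was at 61.5, 62.0, 84.2, 71.5 and 61.0 FPKM in combination tumours, 49.1, 35.4, 41.8, 70.1 and 69.4 FPKM in anti-PD-1 tumours, and 51.6, 27.7, 33.9, 45.1 and 22.9 FPKM in vehicle tumours. All 5 combination tumours were above all 5 vehicle tumours, while the anti-PD-1 tumours spanned from the vehicle range into the combination range. By limma AA467197 rose by 0.94 ± 0.22 (SE) in combination against vehicle, at an adjusted p of 0.00441, a call lost without combination replicates 3, 4 and 5. The differences were 0.39 ± 0.22 between combination and anti-PD-1, at an adjusted p of 0.247, and 0.55 ± 0.22 between anti-PD-1 and vehicle, at an adjusted p of 0.154. The ratio of the FPKM of Ndufa4 to that of AA467197 was 4.07, 3.98, 2.14, 3.21 and 2.62 in combination tumours, 6.03, 8.53, 7.02, 4.28 and 3.59 in anti-PD-1 tumours, and 5.65, 11.3, 9.95, 7.50 and 16.5 in vehicle tumours. That ratio was lower in each combination tumour than in any vehicle tumour. AA467197 has not been counted among the 84 genes, and the macrophage markers given above moved in the same direction, with their part not tested.

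Ndufa4l2, the other relative, is known as a target of hypoxia-inducible factor and was counted with the hypoxia and glycolysis genes rather than as a subunit. It was at 2.69, 1.49, 3.40, 2.99 and 4.45 FPKM in combination tumours, 2.08, 2.87, 2.26, 2.32 and 1.70 FPKM in anti-PD-1 tumours, and 0.951, 1.13, 1.42, 1.51 and 1.03 FPKM in vehicle tumours. Combination replicate 2 fell inside the vehicle range, and the other combination tumours and every anti-PD-1 tumour stood above it. Ndufa4l2 rose by 0.82 ± 0.16 in combination against vehicle (limma, adjusted p = 0.00169), and differed by 0.46 without combination replicates 3, 4 and 5, where the call was lost (adjusted p = 0.0646). The difference was 0.27 ± 0.16 between combination and anti-PD-1 (adjusted p = 0.280) and 0.55 ± 0.16 between anti-PD-1 and vehicle (adjusted p = 0.0628), the last of which passed with a pseudocount of 0.1 (adjusted p = 0.0436).

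**Figure D2:**
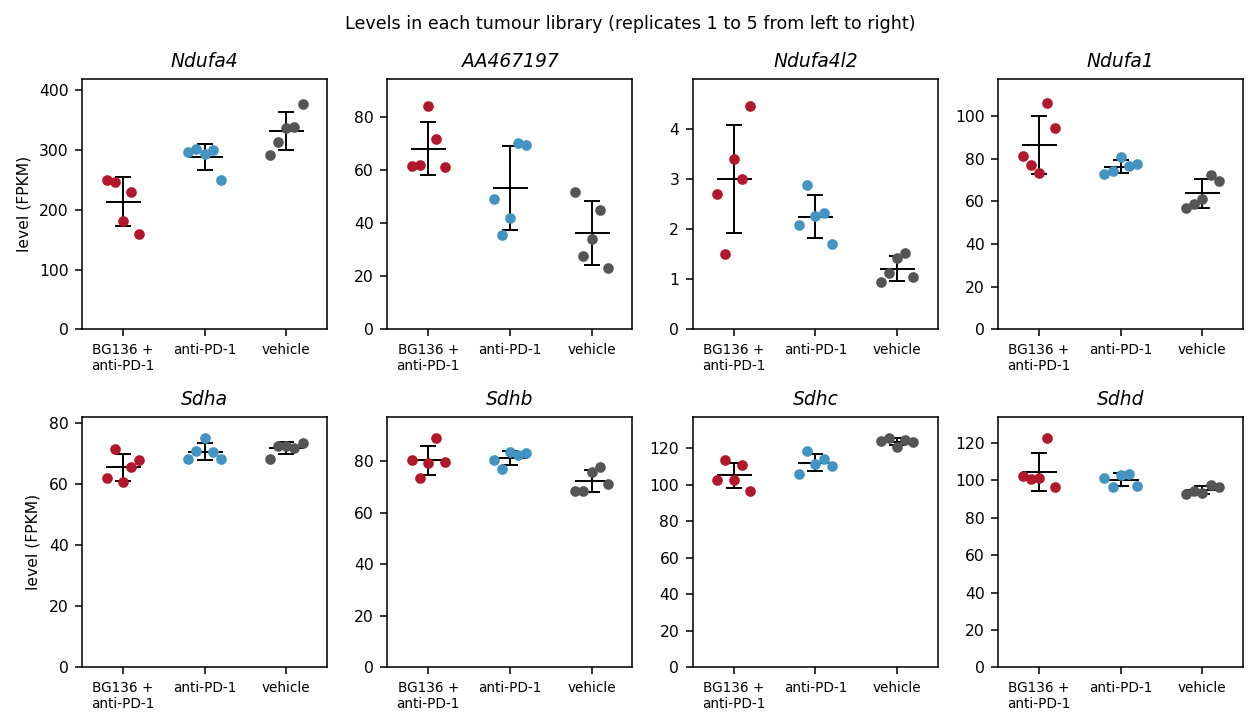
FPKM of Ndufa4, its relatives AA467197 and Ndufa4l2, Ndufa1 and the 4 complex II genes in combination, anti-PD-1 and vehicle tumours; points are libraries, replicates 1 to 5 from left to right, and bars are means with SD. Ndufa4 averaged 213 FPKM in combination tumours against 331 FPKM in vehicle tumours, while AA467197 averaged 68.0 FPKM against 36.2 FPKM.

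Within complex I, the NADH dehydrogenase that starts the chain, 1 gene rose and 2 fell of 37 in combination against vehicle, with Ndufa4 counted here by its symbol. Ndufa1, a small accessory subunit of the membrane arm encoded on the X chromosome, had a rise of about the same size as that of Atp5sl, the other large rise among called members, which was the larger of the pair at smaller pseudocounts. Its level was 81.4, 76.9, 73.3, 106 and 94.4 FPKM in combination tumours, 72.9, 74.0, 80.7, 76.5 and 77.5 FPKM in anti-PD-1 tumours, and 56.9, 58.8, 61.2, 72.1 and 69.5 FPKM in vehicle tumours. Both treated groups lay wholly above the vehicle group, and they overlapped each other. By limma Ndufa1 rose by 0.43 ± 0.09 (SE) in combination against vehicle, at an adjusted p of 0.00298. It differed by 0.16 ± 0.09 between combination and anti-PD-1, at an adjusted p of 0.249, and by 0.26 ± 0.09 between anti-PD-1 and vehicle, at an adjusted p of 0.112. It was the only 1 of the 80 members whose combination range lay above the vehicle range, a pattern found in 9.38% of all genes tested.

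Ndufv1, the subunit that binds NADH and flavin at the tip of the matrix arm, fell in combination tumours. Ndufv1 was at 49.9, 53.0, 49.4, 53.8 and 46.1 FPKM in combination tumours, 61.4, 54.8, 58.4, 58.6 and 57.1 FPKM in anti-PD-1 tumours, and 57.8, 59.6, 55.9, 55.7 and 54.9 FPKM in vehicle tumours. Each combination tumour was below each tumour of either other group. The difference was -0.17 ± 0.05 between combination and vehicle (limma, adjusted p = 0.0124; 0.0726 without combination replicates 3 and 5), -0.20 ± 0.05 between combination and anti-PD-1 (adjusted p = 0.0790) and 0.03 ± 0.05 between anti-PD-1 and vehicle (adjusted p = 0.748). Ndufa4, Ndufv1 and Sdhc were the 3 members whose combination range lay below the vehicle range, a pattern found in 14.7% of all genes tested. Ndufv3, which sits beside Ndufv1 in the matrix arm, averaged 7.50 ± 0.669 FPKM in combination tumours, 6.94 ± 0.595 FPKM in anti-PD-1 tumours and 7.98 ± 0.402 FPKM in vehicle tumours (SD, n = 5 each). Its largest difference was -0.18 ± 0.06 between anti-PD-1 and vehicle (limma, adjusted p = 0.115).

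The 4 genes of complex II, succinate dehydrogenase, did not move together. Sdhb rose, Sdha and Sdhc fell, and Sdhd did not pass the test, although their products form 1 complex with a single copy of each. Sdhc, a membrane anchor that helps to bind quinone, was at 102, 114, 102, 110.5 and 96.4 FPKM in combination tumours, 106, 119, 111, 114 and 110.2 FPKM in anti-PD-1 tumours, and 124, 125, 120.3, 124 and 123 FPKM in vehicle tumours. All tumours of both treated groups were below all vehicle tumours. By limma Sdhc fell by 0.23 ± 0.05 on the log2 scale in combination against vehicle, at an adjusted p of 0.00214. Its difference was -0.09 ± 0.05 between combination and anti-PD-1, at an adjusted p of 0.215, and -0.14 ± 0.05 between anti-PD-1 and vehicle, at an adjusted p of 0.102.

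Sdhb carries the iron-sulphur clusters of the enzyme. It was at 80.4, 73.4, 79.1, 88.8 and 79.4 FPKM in combination tumours, 80.3, 76.7, 83.6, 82.2 and 82.9 FPKM in anti-PD-1 tumours, and 68.3, 68.2, 75.8, 77.8 and 71.1 FPKM in vehicle tumours. The treated groups lay mostly above the vehicle group and overlapped it at its upper end. Sdhb rose by 0.15 ± 0.05 in combination against vehicle (limma, adjusted p = 0.0416), differed by -0.02 ± 0.05 between combination and anti-PD-1 (adjusted p = 0.838) and by 0.17 ± 0.05 between anti-PD-1 and vehicle (adjusted p = 0.0868). The call ended without any one of combination replicates 1, 3, 4 and 5 or vehicle replicates 1, 2 and 5, at adjusted p values of 0.0550 to 0.0984.

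Sdha, the flavoprotein that oxidises succinate, averaged 65.4 ± 4.37 FPKM in combination tumours, 70.5 ± 2.80 FPKM in anti-PD-1 tumours and 71.6 ± 1.94 FPKM in vehicle tumours (SD, n = 5 each). Its difference was -0.13 ± 0.05 between combination and vehicle (limma, adjusted p = 0.0449), -0.11 ± 0.05 between combination and anti-PD-1 (adjusted p = 0.165) and -0.02 ± 0.05 between anti-PD-1 and vehicle (adjusted p = 0.826). That call ended without any one of combination replicates 1, 3 and 4 or vehicle replicates 2 to 5, at adjusted p values of 0.0558 to 0.116. Sdhd, the other membrane anchor, averaged 105 ± 10.3 FPKM in combination tumours, 100.3 ± 3.40 FPKM in anti-PD-1 tumours and 94.9 ± 1.99 FPKM in vehicle tumours (SD, n = 5 each). The difference of Sdhd was 0.13 ± 0.06 between combination and vehicle, at an adjusted p of 0.0703 by limma, and it passed without combination replicate 5, at 0.16 and an adjusted p of 0.0358. The assembly factor Sdhaf2, which helps to attach flavin to Sdha, fell by 0.22 ± 0.05 on the log2 scale in combination against vehicle, at an adjusted p of 0.00354.

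Complex III, which passes electrons from quinol to cytochrome c, held no call in any comparison. The most abundant of its genes was Uqcr11, a small subunit, with 259 ± 48.9 FPKM in combination tumours, 271 ± 20.7 FPKM in anti-PD-1 tumours and 268 ± 15.8 FPKM in vehicle tumours (SD, n = 5 each). Uqcrh, the hinge protein, averaged 247 ± 29.8 FPKM in combination tumours, 256 ± 7.28 FPKM in anti-PD-1 tumours and 259.7 ± 13.6 FPKM in vehicle tumours. The Rieske iron-sulphur protein Uqcrfs1 differed by 0.09 ± 0.06 between combination and vehicle (limma, adjusted p = 0.287) and by 0.13 ± 0.06 between anti-PD-1 and vehicle (adjusted p = 0.241). The largest difference of the complex belonged to Uqcr10, another small subunit, with 22.9, 20.5, 24.0, 34.6 and 21.4 FPKM in combination tumours, 21.8, 21.5, 26.6, 25.1 and 22.6 FPKM in anti-PD-1 tumours, and 15.6, 17.1, 26.2, 19.3 and 20.1 FPKM in vehicle tumours. Combination replicate 4 stood far above its group. The groups overlapped through vehicle replicate 3, which was above the other vehicle tumours. The difference of Uqcr10 was 0.31 ± 0.14 between combination and vehicle (limma, adjusted p = 0.0871), and 0.41 without vehicle replicate 3 (adjusted p = 0.0240). Uqcrc1, a core protein, differed by -0.10 ± 0.05 between combination and anti-PD-1 (adjusted p = 0.209).

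In complex IV, cytochrome c oxidase, 1 of 14 tested genes rose and 0 fell in combination against vehicle. This tally leaves out Ndufa4, which fell and is counted under complex I by its symbol. With no filter on low values, 2 genes under the limit for testing were called by limma, Cox4i2 higher (adjusted p = 0.0298) and Cox7b2 lower (adjusted p = 0.0291). Cox5a, a ubiquitous subunit on the matrix side, was at 202, 191, 209, 195 and 198 FPKM in combination tumours, 198, 203, 191, 208 and 202 FPKM in anti-PD-1 tumours, and 178, 196, 177, 178 and 185 FPKM in vehicle tumours. Vehicle replicate 2 lay inside the range of both treated groups, and the other vehicle tumours lay below them. By limma Cox5a rose by 0.12 ± 0.04 in combination against vehicle, at an adjusted p of 0.0383, and differed by -0.01 ± 0.04 between combination and anti-PD-1 and by 0.13 ± 0.04 between anti-PD-1 and vehicle, at adjusted p values of 0.882 and 0.0893. The call ended without any one of combination replicates 1 and 3 or vehicle replicates 1, 3, 4 and 5, at adjusted p values of 0.0585 to 0.0937. An exon of Cox5a overlaps the gene Gm26631 on the opposite strand, and use of the strand in counting is not given in the sources used here. Cox7a2l, which takes part in supercomplexes of complexes III and IV, averaged 88.5 ± 12.4 FPKM in combination tumours, 75.2 ± 5.13 FPKM in anti-PD-1 tumours and 75.4 ± 7.47 FPKM in vehicle tumours (SD, n = 5 each). Its difference of 0.22 ± 0.09 between combination and vehicle missed the threshold by limma (adjusted p = 0.0565) and passed without combination replicate 2 or vehicle replicate 1, at adjusted p values of 0.0329 and 0.0385. Surf1, an assembly factor of this complex, rose by 0.36 ± 0.07 in combination against vehicle, at an adjusted p of 0.00172.

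Complex IV has isoforms that are restricted to certain tissues, and these were low beside their ubiquitous partners and uneven between libraries. Cox6a2, Cox7a1 and Cox8b are the forms of heart and skeletal muscle, and their ubiquitous partners Cox6a1, Cox7a2 and Cox8a averaged 542 ± 83.8, 127 ± 36.9 and 688 ± 125 FPKM in combination tumours (SD, n = 5). As a share of its partner within a library, Cox6a2 amounted to 4.72 to 9.66% in combination tumours, 3.54 to 7.61% in anti-PD-1 tumours and 3.01 to 8.64% in vehicle tumours. An exon of Cox6a2 overlaps Itgad on the opposite strand. Cox7a1 amounted to 1.29 to 4.44% of Cox7a2 in combination tumours, 1.11 to 2.72% in anti-PD-1 tumours and 0.882 to 4.37% in vehicle tumours. Cox8b amounted to 0.183 to 1.00% of Cox8a in combination tumours, 0.402 to 0.932% in anti-PD-1 tumours and 0.0351 to 1.09% in vehicle tumours. The groups overlapped in each of the 3 ratios. Cox4i2, the form of lung and other oxygen-sensing tissue, reached at most 0.886 FPKM in a combination tumour, 0.450 FPKM in an anti-PD-1 tumour and 0.347 FPKM in a vehicle tumour. The testis forms Cox6b2 and Cox8c were at or near 0: Cox8c was listed at 0 in every library, and Cox6b2 reached 1.25 FPKM in combination replicate 5 and no more than 0.513 FPKM in the other 14 libraries.

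Cox8b had the largest difference of any subunit gene and the widest spread. It was at 6.69, 6.73, 4.08, 1.64 and 3.30 FPKM in combination tumours, 5.08, 6.51, 3.49, 4.66 and 2.96 FPKM in anti-PD-1 tumours, and 0.576, 2.92, 0.234, 8.41 and 1.12 FPKM in vehicle tumours. The highest of all 15 values was vehicle replicate 4, so that the vehicle range covered the other groups. The difference was 0.90 ± 0.46 between combination and vehicle (limma, adjusted p = 0.128) and 0.98 ± 0.46 between anti-PD-1 and vehicle (adjusted p = 0.213). Without vehicle replicate 4 the differences were 1.34 and 1.43, at adjusted p values of 0.0100 and 0.0368. The summed level of 13 skeletal muscle markers ran from 1.89 to 248 FPKM in combination tumours, from 44.1 to 227 FPKM in anti-PD-1 tumours and from 1.58 to 254 FPKM in vehicle tumours. It was lowest in combination replicate 4, at 1.89 FPKM, and in vehicle replicates 3 and 5, at 2.35 and 1.58 FPKM. With the skeletal muscle score as a covariate, Cox8b was called in neither of these comparisons. The adipocyte markers summed to 29.2 to 318 FPKM in combination tumours, 50.2 to 309.7 FPKM in anti-PD-1 tumours and 8.09 to 231 FPKM in vehicle tumours. The brown adipocyte markers had their highest sum, 1.16 FPKM, in vehicle replicate 4, where Cox8b was highest. In combination replicates 1 and 2, with Cox8b at 6.69 and 6.73 FPKM, that sum was 0.0770 and 0.0161 FPKM. The part of these cells in the level of Cox8b was not tested.

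**Figure D3:**
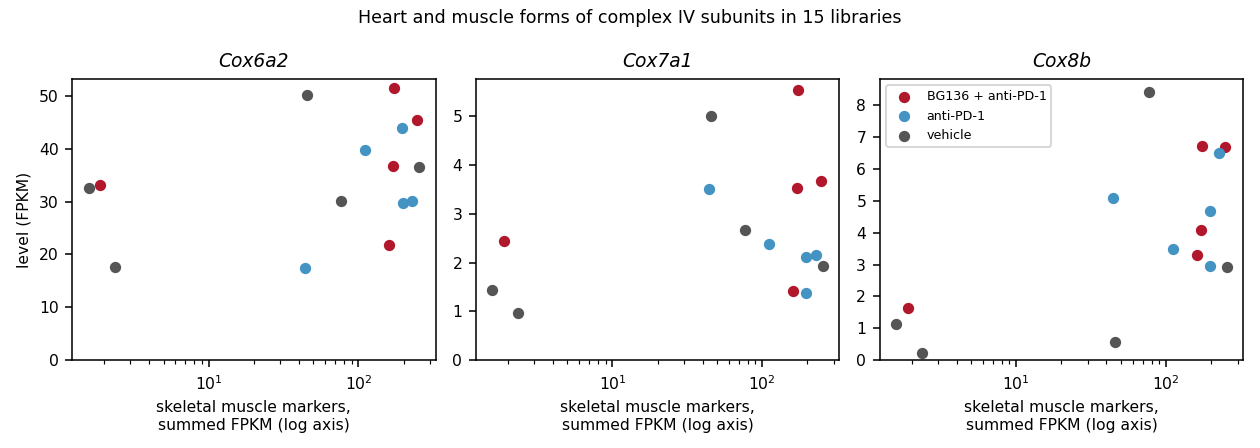
FPKM of the muscle isoforms Cox6a2, Cox7a1 and Cox8b against the summed FPKM of 13 skeletal muscle markers (log axis) in the 15 libraries, by group. Combination replicate 4 and vehicle replicates 3 and 5 lie at the left with marker sums of 1.89, 2.35 and 1.58 FPKM, and Cox8b peaks at 8.41 FPKM in vehicle replicate 4.

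In complex V, ATP synthase, 1 of 17 genes rose and 2 fell in combination against vehicle, and 2 of these 3 carry the Atp5 symbol without being core subunits. Atp5sl, listed by RefSeq as Dmac2, is an assembly factor for the membrane arm of complex I. It was at 2.53, 1.98, 3.44, 1.91 and 3.54 FPKM in combination tumours, 2.13, 2.13, 1.47, 1.91 and 2.09 FPKM in anti-PD-1 tumours, and 1.94, 1.84, 1.52, 1.70 and 1.49 FPKM in vehicle tumours. Combination replicates 3 and 5 were the highest of all, and replicate 4 lay within the vehicle range. Atp5sl rose by 0.42 ± 0.12 in combination against vehicle (limma, adjusted p = 0.0144), with 0.30 ± 0.12 between combination and anti-PD-1 (adjusted p = 0.140) and 0.12 ± 0.12 between anti-PD-1 and vehicle (adjusted p = 0.591). Without combination replicates 3 and 5 the first difference was 0.21 and the call was lost (adjusted p = 0.114), as it was without replicates 3, 4 and 5 (adjusted p = 0.110). Atp5s, listed by RefSeq as Dmac2l and named for a coupling factor of the enzyme, averaged 1.45 ± 0.362 FPKM in combination tumours, 1.34 ± 0.153 FPKM in anti-PD-1 tumours and 1.92 ± 0.202 FPKM in vehicle tumours (SD, n = 5 each). By limma it fell by 0.26 ± 0.09 in combination against vehicle, at an adjusted p of 0.0388, and its difference was 0.06 ± 0.09 between combination and anti-PD-1 and -0.32 ± 0.09 between anti-PD-1 and vehicle, at adjusted p values of 0.681 and 0.0615. The call of Atp5s ended without any one of combination replicates 2, 3 and 5 or vehicle replicates 1, 3, 4 and 5, at adjusted p values of 0.0530 to 0.0950.

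Atp5g1 encodes a form of the c subunit, which builds the rotor ring. It was at 110.0, 118, 108, 116 and 96.9 FPKM in combination tumours, 132, 127, 129.9, 125 and 118 FPKM in anti-PD-1 tumours, and 111, 124, 125, 122 and 125 FPKM in vehicle tumours. All combination tumours lay below all anti-PD-1 tumours, the nearest pair at 117.6 and 117.8 FPKM, and vehicle replicate 1 reached into the combination range. Atp5g1 fell by 0.15 ± 0.06 in combination against vehicle (limma, adjusted p = 0.0486), a call that ended without any one of combination replicates 1, 3 and 5 or vehicle replicates 2 to 5, at adjusted p values of 0.0690 to 0.110. It is the only called member with a near-identical copy elsewhere in the transcript set, and 23 of the 84 members have at least 1 such copy, so that their reads could be split. The catalytic β subunit Atp5b averaged 668 ± 71.2 FPKM in combination tumours, 743 ± 22.9 FPKM in anti-PD-1 tumours and 736 ± 21.2 FPKM in vehicle tumours (SD, n = 5 each), a difference of -0.15 ± 0.07 between combination and vehicle (limma, adjusted p = 0.0907), and of -0.18 without combination replicate 4 (adjusted p = 0.0407). The α subunit Atp5a1 averaged 254 ± 12.5 FPKM in combination tumours, 287 ± 9.98 FPKM in anti-PD-1 tumours and 273 ± 5.15 FPKM in vehicle tumours (SD, n = 5 each). Its difference of -0.10 ± 0.04 between combination and vehicle (limma, adjusted p = 0.0720) was -0.13 without combination replicate 2 (adjusted p = 0.0328). Atpif1, the inhibitor of ATP synthase that is not one of the 84 genes, differed by 0.01 ± 0.10 between combination and vehicle (limma, adjusted p = 0.954).

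Anti-PD-1 alone gave no call among the subunit genes. Against vehicle, 0 of 80 members passed by limma, where 5.55% of all genes tested did (2.21% higher and 3.34% lower), and 8 members had an unadjusted p under 0.05, 5 of them higher and 3 lower, beside 2599 of all 11311 genes. The median difference was 0.02 over the members and 0.01 over all genes. The range of anti-PD-1 tumours lay above that of vehicle tumours for 1 member, Ndufa1 (7.09% of all genes tested), and below it for 2, Sdhc and Atp5s (6.63%). Other fits called some of these genes. Quantile normalization gave 2, Sdhc and Atp5s, and the fit without a variance trend gave Atp5s. With weights per group, which were 0.461 for the combination, 1.38 for anti-PD-1 and 1.57 for vehicle, and likewise with the compared groups alone, 6 members were called, the same 6 in each: Ndufa1, Sdhb and Cox5a higher, and Sdhc, Ndufv3 and Atp5s lower. In those fits 20.1% and 18.6% of all genes tested were called.

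Adding BG136 to the antibody likewise gave no call. Between combination and anti-PD-1, 0 of 80 members passed by limma, where 0.0619% of all genes tested did, and 15 had an unadjusted p under 0.05, 2 of them higher and 13 lower, beside 3187 of all 11311 genes. The median was -0.05 over the members and -0.05 over all genes. The combination range lay above the anti-PD-1 range for 0 members (0.663% of all genes tested) and below it for 3, Ndufv1, Atp5a1 and Atp5g1 (3.84%), against 4.50% of all genes in either direction. The difference was -0.18 ± 0.04 for Atp5a1, at an adjusted p of 0.0790, and -0.21 ± 0.06 for Atp5g1, at an adjusted p of 0.0822. Without combination replicate 2, 5 members were called, Ndufa4, Ndufv1, Atp5a1 and Atp5g1 lower and Atp5sl higher, together with 19.7% of all genes tested.

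The combination tumours differed among themselves more than the other groups did. The median SD of a member's log2 value was 0.195 in combination tumours, 0.0675 in anti-PD-1 tumours and 0.0780 in vehicle tumours, and over all genes tested it was 0.164, 0.0960 and 0.0913 in the same groups. Without combination replicate 4 the members' median SD in that group was 0.110. The 84 genes summed to 11793, 11860, 10630, 15159 and 10503 FPKM in combination tumours, to between 12074 and 12964 FPKM in anti-PD-1 tumours and to between 11891 and 12881 FPKM in vehicle tumours. Combination replicate 4 stood above every other library and each other combination tumour below every vehicle tumour. As a share of all FPKM they made up 3.06, 3.07, 2.73, 3.57 and 2.67% in combination tumours, 3.07 to 3.30% in anti-PD-1 tumours and 3.06 to 3.36% in vehicle tumours.

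The excess of combination replicate 4 was shared by the complexes to different degrees. Its median deviation from the mean of all 15 libraries, on the log2 scale, was 0.28 for complex III, 0.27 for complex IV, 0.21 for complex I, 0.11 for complex V and 0.08 for complex II, while over all genes tested it was -0.03. An excess was not particular to the subunits. Genes of the mitochondrial ribosome summed to 2597, 2612, 2323, 3021 and 2295 FPKM in combination replicates 1 to 5, and assembly factors to 731, 718, 705, 872 and 696 FPKM. Genes of the tricarboxylic acid cycle, at 825, 865, 795, 825 and 739 FPKM, and regulators of mitochondrial biogenesis, at 176, 168, 161, 150 and 143 FPKM, were not highest in replicate 4. Combination replicate 5 was low, with -0.29 for complex IV, -0.17 for complexes I and V, -0.16 for complex III and -0.04 for complex II. The summed level of complex IV was 3729 ± 743 FPKM in combination tumours, 3779 ± 144 FPKM in anti-PD-1 tumours and 3799 ± 166 FPKM in vehicle tumours (SD, n = 5 each), and 5006 FPKM in combination replicate 4 alone. Complex II summed to 355 ± 19.3 FPKM in combination tumours, 364 ± 7.34 FPKM in anti-PD-1 tumours and 362 ± 6.44 FPKM in vehicle tumours. The macrophage markers were highest in combination replicates 5 and 3, at 4496 and 3704 FPKM, the libraries with the lowest subunit sums, and their part was not tested.

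**Figure D4:**
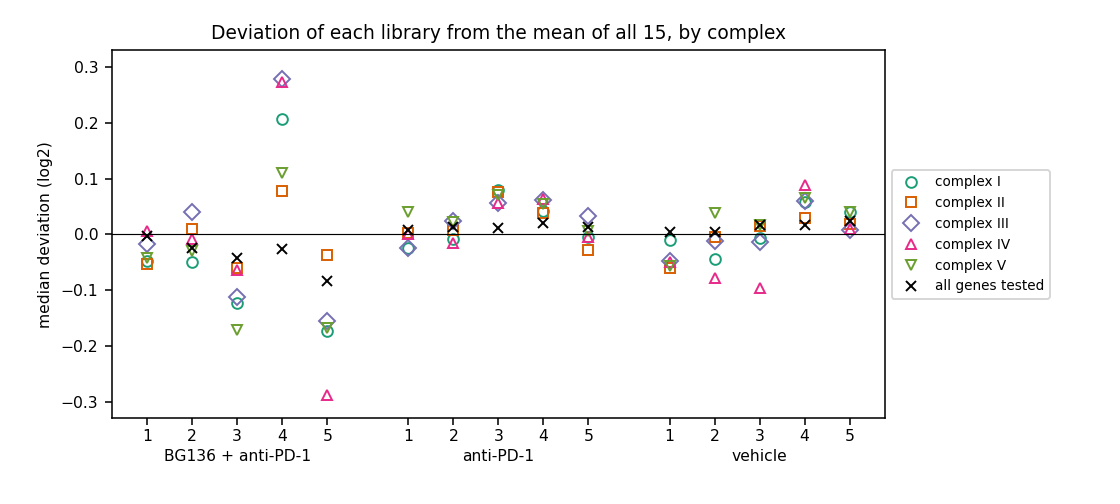
Median log2 deviation of each of the 15 libraries from the mean of all 15, for the tested genes of complexes I to V and for all genes tested, by group. Combination replicate 4 lies at 0.28 for complex III and 0.08 for complex II, and combination replicate 5 at -0.29 for complex IV.

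In combination replicate 4 the deviation was larger for short transcripts. Against the mean of the other 4 combination libraries, 72 of the 80 members were higher there, by a median of 0.42 for the 40 members whose transcript was at most 669.5 bases long and of 0.24 for the 40 longer ones. Over all genes tested with a known length, the 669 of that short class deviated by a median of 0.11 and the 10528 longer ones by -0.02. In combination replicate 3, 66 members were lower than in the other 4 libraries, by medians of -0.17 for the short and -0.11 for the long members, and in replicate 5 72 members were lower, by -0.21 and -0.16. Without replicate 4, the combination against vehicle gave 25 called members, 3 higher and 22 lower, of which 8 were among the 10 above. The 17 others included Cox6c, a small subunit of complex IV, at -0.43 and an adjusted p of 0.00386, Ndufb2 at -0.38 and 0.00689, and Atp5j2 at -0.23 and 0.00748. By complex, the 25 were 1 higher and 10 lower for complex I, 1 lower for complex II, none for complex III, 1 higher and 3 lower for complex IV and 1 higher and 8 lower for complex V. The share of all genes called was then 40.4% and the members' median -0.11. The part of this library's short transcripts in the result was not tested.

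**Figure D5:**
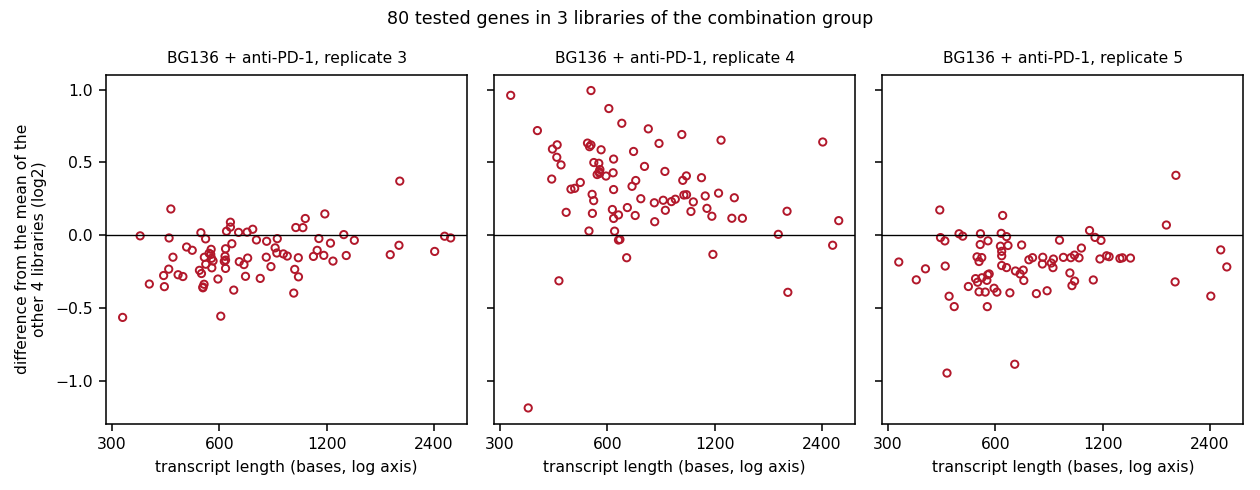
Difference of each tested subunit gene from the mean of the other 4 combination libraries on the log2 scale, against transcript length (log axis), in combination replicates 3, 4 and 5. In replicate 4 the median is 0.42 for the 40 shorter transcripts and 0.24 for the 40 longer, and in replicates 3 and 5 most points lie below 0.

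Genes that work with the complexes were counted from lists. Of 50 tested assembly factors, 3 rose and 11 fell (22.0%) in combination against vehicle, with a median of -0.07, beside the 16.6% higher and 23.9% lower over all genes tested. Of 18 electron carriers and enzymes of coenzyme Q synthesis, 2 rose and 5 fell (27.8%), with a median of -0.10. Etfdh, which passes electrons from fatty acid oxidation to coenzyme Q, fell by 0.30 ± 0.06 on the log2 scale (limma, adjusted p = 0.00127), and Coq2, an enzyme of coenzyme Q synthesis, fell by 0.26 ± 0.06 (adjusted p = 0.00600). Of 17 genes of pyruvate oxidation and the tricarboxylic acid cycle, 1 rose and 3 fell (17.6%), with a median of -0.05. Idh3b, a subunit of the mitochondrial isocitrate dehydrogenase, was at 45.6 ± 3.45 FPKM in combination tumours, 43.3 ± 1.49 FPKM in anti-PD-1 tumours and 35.8 ± 1.82 FPKM in vehicle tumours (SD, n = 5 each). It rose by 0.34 ± 0.05 in combination against vehicle (limma, adjusted p = 0.000432) and by 0.27 in anti-PD-1 against vehicle (adjusted p = 0.0113). Suclg1, a subunit of succinyl-CoA ligase, fell by 0.26 ± 0.06 in combination against vehicle (adjusted p = 0.00326).

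Of 12 tested regulators of mitochondrial biogenesis, 0 rose and 3 fell (25.0%) in combination against vehicle by limma, with a median of -0.10 and 5 at an unadjusted p under 0.05. Polrmt, the mitochondrial RNA polymerase, fell by 0.26 ± 0.06 on the log2 scale (limma, adjusted p = 0.00278), and Tfb1m, a methyltransferase of mitochondrial ribosomal RNA, fell by 0.35 ± 0.08 (adjusted p = 0.00476). Of 77 genes of the mitochondrial ribosome, 0 rose and 18 fell (23.4%), with a median of -0.05. Mrpl17, a protein of its large subunit, was at 7.69 ± 0.704 FPKM in combination tumours, 9.44 ± 0.530 FPKM in anti-PD-1 tumours and 11.0 ± 0.294 FPKM in vehicle tumours (SD, n = 5 each). It fell by 0.47 ± 0.06 in combination against vehicle (adjusted p = 7.31e-05) and by 0.21 in anti-PD-1 against vehicle (adjusted p = 0.0446), where the call ended without any one library of these 2 groups other than anti-PD-1 replicate 3, at adjusted p values of 0.0559 to 0.112. Mrpl10, of the same subunit, fell by 0.28 ± 0.05 in combination against vehicle (adjusted p = 0.00115). Of 19 genes of hypoxia and glycolysis 2 rose (10.5%) and 0 fell, with a median of -0.06 and 13 of the 19 differences below 0. The 2 were Ndufa4l2 and Pfkp, a form of phosphofructokinase. Pfkp rose by 0.59 ± 0.09 in combination against vehicle (limma, adjusted p = 0.000281).

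In anti-PD-1 against vehicle, where 5.55% of all genes were called by limma, 2 of 18 electron carriers, 1 of 17 genes of the tricarboxylic acid cycle and 1 of 19 of hypoxia and glycolysis rose, and 1 of 77 genes of the mitochondrial ribosome fell. The call in hypoxia and glycolysis, Pfkp, ended without any one library of these 2 groups other than anti-PD-1 replicate 3, at adjusted p values of 0.0544 to 0.117. Of 50 assembly factors and 12 regulators of biogenesis 0 passed by limma, with 4 and 2 of them at an unadjusted p under 0.05. Among the markers in that comparison, 2 T cell genes rose and 2 fibroblast genes fell. Between combination and anti-PD-1, 0 genes of the lists were called by limma, with 25 of 77 genes of the mitochondrial ribosome, 9 of 50 assembly factors, 5 of 17 genes of the tricarboxylic acid cycle, 2 of 12 regulators, 1 of 18 electron carriers and 1 of 19 genes of hypoxia and glycolysis at an unadjusted p under 0.05, beside 3187 of all 11311 genes. Of the 13 subunits encoded by mitochondrial DNA, 0 were matched by symbol or synonym in the expression table, so they could not be analysed here.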

How the data were processed

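RNA of 15 tumour pieces was sequenced from stranded mRNA libraries. The table the authors deposited holds 1 expression value per gene and library, read here as FPKM, since its header does not name the unit and the values fit a scaling to transcript length and library size. The submitters' processing notes name Trimmomatic, HISAT2, Cufflinks, HTSeq and DESeq, with no version or role, and the build GRCm39. The read depth behind each FPKM value is unknown, so no counting error can be given. Of 21878 entries, 27 had been turned into dates and were left out; they held at most 0.168% of a library's FPKM.

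Values were taken as log2(FPKM + 1), and the genes that reached 1 FPKM in 5 or more libraries were fitted with limma 3.58.1 in R 4.3.3, with 3 group means over all 15 libraries, a variance trend and Benjamini-Hochberg adjustment over 11311 genes. The script was tested on simulated data. Python 3.11.15, pandas 2.3.3 and numpy 2.4.6 were used for the rest. Near-identical copies were sought with blastn 2.17.0 among transcripts of GRCm38, at 95% identity or more over at least 150 bases. No pair of the 15 libraries held the same values.

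The members and the 18 lists were chosen with earlier results of these data known. The lists hold 286 symbols, of which 6 were matched by a synonym and 14 were not matched. Genes are named by rule: per complex the highest level and, per comparison, the 2 smallest p values; the 3 largest rises and falls among the calls; all Sdh genes; the Cox isoform pairs, Ndufa4 and Atpif1; and the 2 smallest p values per pathway list. AA467197 and the genes named under leave-outs were chosen after their values were seen, as were Cdx2 and Vil1. Alternatives covered pseudocounts, filters, scaling, replicate blocks, left-out libraries, the fit's samples and variance model, marker covariates and the call rule.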

Additional observations from a re-analysis of the deposited data

Results flagged for a closer look

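Within each group of 5, a library was set apart where its gap to the nearest other library exceeded 0.71 of the group's range. This held for 14 of 156 groups of values (8.97%), where chance gives about 5%; 5 of the 14 were combination replicate 4 and 3 were anti-PD-1 replicate 5. In combination replicate 4, complex IV summed to 5006 FPKM (next 3628 FPKM), Cox6b1 was at 359 FPKM (next 299 FPKM), Cox7a2 at 189.6 FPKM (next 125 FPKM), Sdhd at 123 FPKM (next 102 FPKM) and Uqcr10 at 34.6 FPKM (next 24.0 FPKM). In combination replicate 5, Cox6b2 was at 1.25 FPKM (next 0.101 FPKM). In anti-PD-1 replicate 5, Ndufa4 was at 249 FPKM (next 294 FPKM), Atp5s at 1.07 FPKM (next 1.36 FPKM) and Idh3b at 45.9 FPKM (next 43.3 FPKM). In anti-PD-1 replicate 1, Uqcrc1 was at 106 FPKM (next 97.7 FPKM). In vehicle replicate 1, Atp5g1 was at 111 FPKM (next 122 FPKM) and Sdha at 68.2 FPKM (next 71.8 FPKM). In vehicle replicate 4, Suclg1 was at 51.6 FPKM (next 53.8 FPKM). In vehicle replicate 5, Cox6b2 was at 0.513 FPKM, and it was listed at 0 in the other vehicle libraries.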

How the results depend on the processing

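No call of a named gene reversed its direction under the alternatives listed for single genes. Those do not include the compared groups alone, weights per group, the fit without a variance trend, the marker covariates or the 1.5-fold rule. The members' median difference, close to 0, changed sign. For combination against vehicle it was -0.04, and 0.04 without combination replicates 3 and 5, 0.0017 without combination replicate 5 and 0.0048 with the skeletal muscle score. For combination against anti-PD-1 it was -0.05, and 0.04 without combination replicates 3 and 5. For anti-PD-1 against vehicle it was 0.02, and -0.0042 with quantile normalization. The 10 called members of combination against vehicle were 5 with the compared groups alone, 5 with the adipocyte score as a covariate, 1 (Ndufa4) under an unadjusted p with a 1.5-fold change, 4 without combination replicates 3 and 5 and 4 without combination replicates 3, 4 and 5, both of these left-out sets chosen after seeing the data. Of all genes tested, 32.6%, 20.5%, 11.3%, 28.2% and 19.7% were called in these settings, in the same order, against 40.5% in the main fit. Leaving out 1 library gave between 5 and 25 called members, with 33.1% to 46.0% of all genes called. The other settings gave 7 to 15, of which the skeletal muscle covariate gave 12, 9 higher and 3 lower. The 0 of anti-PD-1 against vehicle became 2 with quantile normalization, 6 with the compared groups alone, 6 with weights per group, 1 without a variance trend, 1 (Cox8b) with the 1.5-fold rule, and 0 to 1 on leaving out a library. The 0 of combination against anti-PD-1 became 0 to 5 on leaving out a library and stayed at 0 otherwise. With the replicate number as a block the counts were 9, 0 and 0. No clear pairing of tumours by number was seen. Over 15 pairs of the same number the correlation of deviations ran from -0.388 to 0.293, 2 were over 0.1, and 1 library correlated best with its own number. No spread for pairs of different numbers was set beside these, so a weak shared effect could not be told this way. The share of promoters with an ETS motif was 37.1% for the core and 7.14% for the longer letters, and with an NRF1 motif 14.3% for the core and 7.14% for the palindrome. For single genes, 2079 values under the alternatives listed for them, apart from those left-out sets, kept their side of the threshold, 66 lost and 33 gained a call. The causes were not tested. Depth is unknown, so the limit for the genes near 1 FPKM, such as Atp5s and Atp5sl, cannot be given.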
